A study of Rattus norvegicus with 4 samples.

Results

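Phf8 and its nearest relatives Phf2 and Kdm7a, the 3 genes of the Kdm7 subfamily of histone demethylases, were followed in rat cells made to carry extra Phf8. The members were chosen by name, and all 3 had a row among the 14410 genes of the deposited table. The cells were CG4, a rat line of oligodendrocyte progenitors, of wild-type genotype in every library. Control cells (ctrl) had received a retrovirus with CAG-IRES-GFP and the others (Phf8oe) one with CAG-Phf8-IRES-GFP, where CAG is a strong ubiquitous promoter and the IRES lets one transcript give both Phf8 and GFP. Both groups were sorted for GFP 2 days after transduction, expanded, and held in differentiating medium for 3 days, so sorting, GFP and differentiation are shared by all libraries. Each group held 2 libraries, labelled biological replicates of 1 cell line, each made from a pooled sorted population and not from a clone. The labels do not say whether they came from separate transductions, so p-values measure only the spread between these libraries. The question put by the design is which genes respond to a raised level of Phf8 in oligodendroglial cells.

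The enzymes of this subfamily join a PHD finger, which docks on trimethylated lysine 4 of histone H3 at active promoters, to a JmjC domain, which uses iron, oxygen and 2-oxoglutarate to take methyl groups off lysine. Phf8 acts on the mono- and dimethyl marks of H3 lysine 9 and on the monomethyl mark of H4 lysine 20, and is an X-linked gene whose loss in people causes intellectual disability with cleft lip or palate. Kdm7a (also called Jhdm1d) acts on the dimethyl marks of H3 lysine 9 and lysine 27. Phf2 has little activity alone and is known to work with the DNA-binding protein Arid5b after phosphorylation by protein kinase A.

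The native start sites of Phf8 and Phf2 are shown because the transduced copy is read from the viral CAG promoter and not from these sequences. Each window covers 250 bases before to 50 after an annotated start in RefSeq's GRCr8 assembly, on the plus strand, at chrX:23967328-23967627 for Phf8 and chr17:15989344-15989643 for Phf2. Capitals mark every CG dinucleotide.
Phf8: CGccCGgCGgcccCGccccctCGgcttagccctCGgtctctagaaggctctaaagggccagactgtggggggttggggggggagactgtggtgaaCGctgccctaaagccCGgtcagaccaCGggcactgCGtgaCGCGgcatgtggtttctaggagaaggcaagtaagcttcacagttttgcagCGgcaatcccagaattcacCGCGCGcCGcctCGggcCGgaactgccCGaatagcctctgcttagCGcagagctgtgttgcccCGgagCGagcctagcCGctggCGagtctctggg
Phf2: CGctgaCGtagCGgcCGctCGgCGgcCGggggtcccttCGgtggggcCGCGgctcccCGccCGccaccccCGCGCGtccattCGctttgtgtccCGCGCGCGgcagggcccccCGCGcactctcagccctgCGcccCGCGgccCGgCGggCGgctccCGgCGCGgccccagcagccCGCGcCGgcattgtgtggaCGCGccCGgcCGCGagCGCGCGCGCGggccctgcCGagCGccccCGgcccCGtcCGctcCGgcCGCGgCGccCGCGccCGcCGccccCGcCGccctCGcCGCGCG
The Phf8 window held 25 CG dinucleotides, a number reached by 36.3% of the 11550 windows of tested genes. The Phf2 window held 63, reached by 0.0433% of them, with a G and C content of 86.3%. Kdm7a had 4 annotated windows, of which the one farthest upstream held 21 CG dinucleotides and the other three between 1 and 3. All 3 promoter descriptions are of the reference sequence, and no measurement here bears on how these promoters were used.

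The values are normalized counts per gene, which the authors scaled so that libraries of different depth compare. They summed to between 39945215 and 41149255 per library, and the spacing of the values put the reads behind them at about 28400000 to 47800000, fewest in Phf8oe replicate 2. Sox10, Olig2 and Mbp were abundant in all 4 libraries (lowest values 61514, 15146 and 173338). Of 11 oligodendrocyte lineage markers 4 were higher in Phf8oe, 1 was lower and 6 did not pass the test. The share called was 45.5%, against 7.64% of all tested genes. The summed level of 6 astrocyte markers ranged from 92430 to 93079 in ctrl and from 22086 to 32268 in Phf8oe. The markers did not move one way. Gfap, with 79141 and 80736 normalized counts against 10834 and 19613, was called lower. Slc1a3 (1063 and 1192 against 1614 and 1692) was called higher. Slc1a2, Gja1 and S100b did not pass but lay lower without overlap, as did 28.7% of all tested genes. Their log2 fold changes were -1.02, -0.76 and -0.18, and Slc1a2 was of low level (30 and 58 against 16 and 25). Aldh1l1 (9 and 10 against 32 and 44) was also called higher. It lay near the floor and met the minimum for testing, 10 in at least 2 libraries, only through its Phf8oe values. The summed level of 4 neuronal markers, none of which passed (3 had an unadjusted limma p under 0.05), ranged from 9405 to 12844 and from 6076 to 6696. Tubb3 and Syt1 made up nearly all of this sum. Rbfox3 (27 and 38 in ctrl, 28 and 6 in Phf8oe) and Snap25 (28 and 25, 9 and 17) lay near the floor. For 2 microglial markers the summed level ranged from 142 to 214 and from 154 to 212. Nearly all of it was Cd68, since Csf1r stood at the floor (8 and 8 in ctrl, 11 and 10 in Phf8oe). The single fibroblast marker measured, Col1a1, ranged from 437 to 454 in ctrl and from 121 to 164 in Phf8oe. Mitochondrially encoded transcripts took 3.62% to 3.68% of the ctrl totals and 4.76% to 5.34% of the Phf8oe totals. The part of these shifts in the results below was not tested, and in bulk RNA fewer cells of a type cannot be told from less RNA per cell.

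Phf8, the transduced gene, had 2026 and 2205 normalized counts in ctrl replicates 1 and 2, and 5650 and 10796 in Phf8oe replicates 1 and 2. Both Phf8oe libraries lay well above both ctrl libraries, at 2.67 and 5.1 times the ctrl mean, and the groups did not overlap, as for 28.9% of all tested genes in the higher direction. The order of all 4 libraries was thus that of their labels. The deposited value sums reads from the cell's own gene and from the virus, and no source used here gives the species of the viral copy. Above the ctrl mean of 2116 ± 127 (SD, n = 2), Phf8oe replicate 1 held 3534.5 further normalized counts and replicate 2 held 8680.5, which is 2.46 times as many. The Phf8oe mean was 8223 ± 3639 (SD, n = 2). The reads estimated behind these values numbered 2167 to 7625 per library, which gives a counting error of at most 2.15% for a single library. The Phf8oe libraries differed by 1.91-fold.

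Across 14368 tested genes, limma called 7.64% at a Benjamini-Hochberg adjusted p under 0.05, 2.99% higher and 4.65% lower in Phf8oe, and none of the 3 subfamily members was among them (1 of the 3, Phf8, had an unadjusted limma p under 0.05, as did 3778 genes in all). Groups that did not overlap, in either direction, were found for 57.6% of tested genes and for Phf8 and Kdm7a. Phf8 had a log2 fold change of 1.89 (SE 0.35, 95% interval 0.9 to 2.87), with an adjusted p of 0.0631 in limma. Only 25 tested genes had a larger fitted log2 fold change, and none of those was as abundant as Phf8 on average over the 4 libraries. The gap of 0.93 log2 units between the Phf8oe libraries for Phf8 exceeded that of 99.6% of the 500 genes nearest to it in level. In ctrl the corresponding gap was 0.12, larger than in 62.2% of the 500 nearest genes. Over 16 alternative analyses the log2 fold change of Phf8 stayed between 1.42 and 2.35. It passed the threshold in 4 of them, among them without robust variance moderation (limma adjusted p = 0.0194), without Phf8oe replicate 1 (2.98e-10) and without Phf8oe replicate 2 (1.24e-07). Each of the last 2 leaves a single Phf8oe library, assumed to vary as the ctrl pair does.

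**Figure D1:**
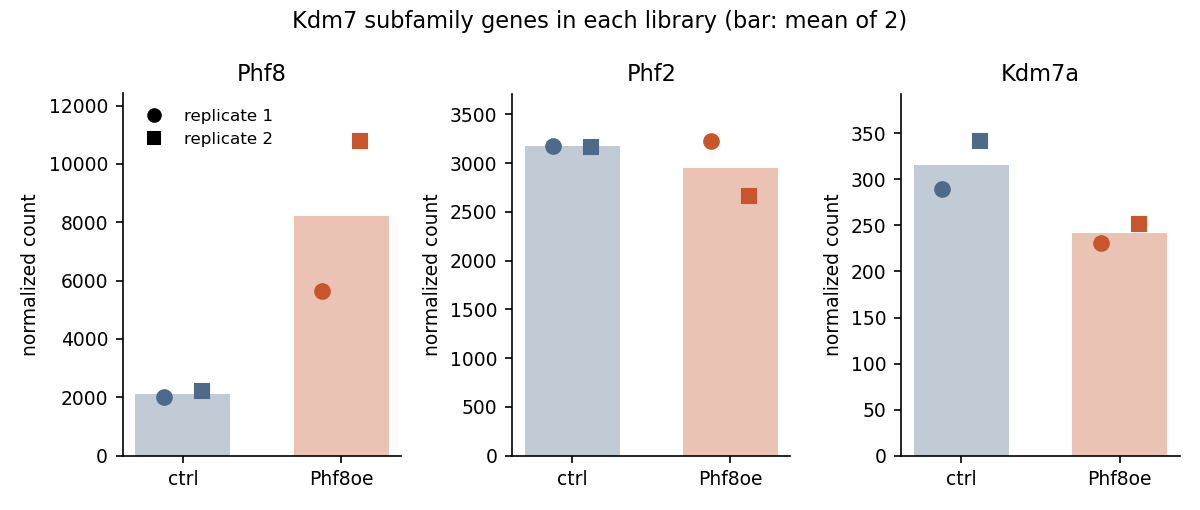
Normalized counts (y axis, starting at 0) of Phf8, Phf2 and Kdm7a in ctrl and Phf8oe; points are single libraries, circles for replicate 1 and squares for replicate 2, and bars are means of 2. Phf8 stood at 5650 and 10796 in Phf8oe against 2026 and 2205 in ctrl, Phf2 overlapped between the groups, and Kdm7a lay lower in both Phf8oe libraries.

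Phf2 had 3178 and 3164 normalized counts in ctrl and 3230 and 2666 in Phf8oe. The Phf8oe libraries straddled the ctrl pair, replicate 1 lying just above it and replicate 2 below it. The log2 fold change was -0.11 (SE 0.12, 95% interval -0.37 to 0.15, limma adjusted p = 0.582). The interval allows a fall of up to 0.37 log2 units or a rise of up to 0.15, so a change of 2-fold lies outside it in both directions. Without Phf8oe replicate 2 the estimate was 0.03 (limma adjusted p = 0.915), the opposite sign, and without Phf8oe replicate 1 it was -0.25 (limma adjusted p = 0.189). The library with the most Phf8 thus had the least Phf2, an observation on 1 library that no replicate repeats. The ctrl libraries differed by only 0.01 log2 units, a smaller gap than in all but 3.2% of tested genes.

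Kdm7a, the least counted of the 3 genes, had 290 and 342 normalized counts in ctrl and 231 and 252 in Phf8oe. Both Phf8oe values lay below both ctrl values, as was the case for 28.7% of all tested genes in the lower direction. The log2 fold change was -0.38 (SE 0.18, 95% interval -0.79 to 0.02, limma adjusted p = 0.215), and the gene did not pass. The estimate was negative in all 16 alternatives, from -0.5 to -0.26, and the adjusted p ranged from 0.176 to 0.596. Fewer reads stood behind it: an estimated 343 and 336 in ctrl and 242 and 178 in Phf8oe. Counting error alone was 5.4% to 7.5% per library, and the gap between the ctrl libraries was 1.18-fold.

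Dividing one member by another inside each library removes the scaling of that library. The ratio of Phf8 to Phf2 counts was 0.638 and 0.697 in ctrl and 1.75 and 4.05 in Phf8oe. Phf2 thus collected more counts than Phf8 in both ctrl libraries and fewer in both Phf8oe libraries; since the counts are not per length, only the turn between groups can be read and not which transcript was more abundant. The ratio of Phf8 to Kdm7a was 6.99 and 6.45 in ctrl and 24.5 and 42.8 in Phf8oe. Between groups these 2 ratios differed by 2.0 and 2.27 log2 units, each with a two-sided exact permutation p of 0.333, the smallest that 2 against 2 libraries can give, and 0.5 after Benjamini-Hochberg adjustment over 3 pairs. The third ratio, Phf2 to Kdm7a, was 11.0 and 9.25 in ctrl and 14.0 and 10.6 in Phf8oe. Its groups overlapped, and the difference of 0.27 log2 units had an exact permutation p of 0.667.

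**Figure D2:**
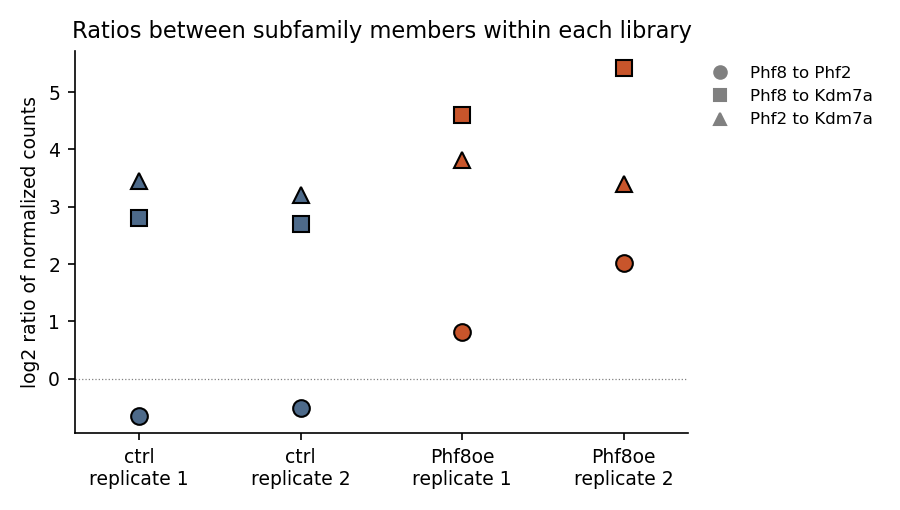
Log2 ratio of normalized counts between 2 subfamily members (y axis) within each of the 4 libraries (x axis); blue symbols are ctrl and orange are Phf8oe. Both ratios with Phf8 as numerator lay higher in the Phf8oe libraries, Phf8 to Phf2 moving from -0.65 and -0.52 to 0.81 and 2.02, while Phf2 to Kdm7a overlapped.

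The counts of the 3 members together came to 5494 and 5711 in ctrl against 9111 and 13714 in Phf8oe, a mean 2.04 times that of ctrl. Phf8 made up 36.9% and 38.6% of this sum in ctrl and 62.0% and 78.7% in Phf8oe, not corrected for length. Kdm7a made up 5.28% and 5.99% in ctrl and 2.54% and 1.84% in Phf8oe, a share that falls as the sum grows even where its own count does not.

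Genes beside the members on the chromosome were looked at because reads of overlapping transcripts may not be separable. Kdm7a overlapped 1 gene that was not among those tested, and no tested gene overlapped any of the 3 members, in the RefSeq table of GRCr8, an assembly other than the one behind the counts. On the X chromosome Phf8 lies between Wnk3, a kinase of ion transport, and Huwe1, a ubiquitin ligase. Wnk3 had 291 and 287 normalized counts in ctrl and 232 and 222 in Phf8oe, at a log2 fold change of -0.35 (limma adjusted p = 0.239). Huwe1 had 11889 and 11195 against 10294 and 9386 (log2 fold change -0.23, limma adjusted p = 0.193). The next genes out were Tsr2, a ribosome assembly factor, at a log2 fold change of -0.17 and the mitochondrial dehydrogenase gene Hsd17b10 at 0.41 (limma adjusted p = 0.546 and 0.0717). None of these 4 neighbours passed the limma test (1, Hsd17b10, had an unadjusted p under 0.05), and none lay nearly as far from 0 as Phf8. In all 4 the groups did not overlap, as for 57.6% of all tested genes, with Wnk3, Tsr2 and Huwe1 lower and Hsd17b10 higher.

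Around Phf2 on chromosome 17 the neighbours Fam120a, Wnk2, Ptpdc1 and Mirlet7d had log2 fold changes between -0.1 and 0.15. Around Kdm7a on chromosome 4, Parp12 stood at 0.08, Tbxas1 at -0.43, Chmp4bl1 at -0.1 and Slc37a3 at -0.07. None of the 8 passed the limma test and 0 had an unadjusted p under 0.05, the smallest adjusted p being 0.469, for Tbxas1, a gene of low level with 46 and 33 against 33 and 25 normalized counts. In 6 of the 8 the groups overlapped, the exceptions being Fam120a and Slc37a3, which lay lower. Groups without overlap were found for 57.6% of all tested genes.

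The library profile of each member was set beside those of 11263 other genes, using the root mean square difference of log2 values centred on each gene's mean over the 4 libraries. No gene came within 0.1 log2 units of Phf8. The nearest was Lzts1, a leucine zipper gene, at 0.133 (78 and 100 normalized counts in ctrl, 224 and 381 in Phf8oe). It was followed by Prelp, which encodes a matrix proteoglycan, at 0.205 (25 and 28 against 51 and 119) and by C1qtnf6 at 0.257 (37 and 53 against 94 and 163). In all 3, as in Phf8, Phf8oe replicate 2 was the highest library. The 3 genes were picked for their likeness to Phf8 in these same libraries. That order and their limma results are therefore not independent of the choice and lend it no support. Lzts1 and C1qtnf6 rose in the limma test, 3.28-fold (adjusted p = 0.0131) and 2.76-fold (adjusted p = 0.0347), and Prelp did not pass (adjusted p = 0.0576). The calls of Lzts1 and C1qtnf6 were lost without ctrl replicate 1 (limma adjusted p = 0.208 and 0.329) and without ctrl replicate 2 (0.0742 and 0.108), and that of C1qtnf6 also without Phf8oe replicate 2 (0.0501) and without robust variance moderation (0.0584). Without a variance trend both were lost (limma adjusted p = 0.119 and 0.153).

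Profiles like those of the other two members were common. Within 0.1 log2 units of Phf2 lay 1267 genes, the nearest being Arfgap1, Erlin2 and Ddx17 at 0.01, 0.0117 and 0.0141. Each of these shared the single low value in Phf8oe replicate 2, as in Ddx17, an RNA helicase gene, with 21852 and 22142 in ctrl and 22637 and 18829 in Phf8oe. Within 0.1 of Kdm7a lay 287 genes, the nearest being the splicing factor gene Rbfox2 at 0.0167, Cntf, a ciliary neurotrophic factor gene, at 0.0197, and the homeobox gene Mkx at 0.0204. Rbfox2 had 1241 and 1447 normalized counts in ctrl and 1007 and 1068 in Phf8oe, and did not pass the limma test (adjusted p = 0.0966). With 4 libraries a close profile describes these libraries and carries no test.

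The other enzymes with a JmjC domain were the first group set beside the subfamily. Of 16 measured, Kdm3a and Kdm2a fell, none rose and 14 did not pass, a share called of 12.5% against 7.64% of all tested genes. The median log2 fold change was -0.16 against 0.0 over all tested genes. Kdm3a, a demethylase of H3 lysine 9 that is induced in hypoxia, had 4696 and 4524 normalized counts in ctrl and 3098 and 3268 in Phf8oe, 1.45-fold lower (limma adjusted p = 0.0154). Kdm2a, which acts on H3 lysine 36, had 5181 and 4784 against 3464 and 3671, 1.4-fold lower (limma adjusted p = 0.026). In 9 of the 16 genes both Phf8oe values lay below both ctrl values, against 28.7% of tested genes, and in 3 they lay above. At an unadjusted p under 0.05 stood 8 of the 16, against 3778 of 14368 tested genes. Below ctrl, beside Kdm3a and Kdm2a, were Kdm5a, Kdm5b, Kdm5c and Kdm4c, and above ctrl Riox1 and Kdm8 at log2 fold changes of 0.3 and 0.31.

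Kdm5c, a demethylase of H3 lysine 4 described as a target of Phf8 and like it an X-linked gene of intellectual disability, had 6795 and 6219 normalized counts in ctrl and 5172 and 5104 in Phf8oe. Its groups did not overlap, but it did not pass (log2 fold change -0.34, SE 0.1, limma adjusted p = 0.0678). The most abundant genes of the group that did not pass were Kdm6b, a demethylase of H3 lysine 27, at a log2 fold change of -0.07 and Kdm4b at -0.15. Kdm7a at -0.38 thus lay between Kdm2a and Kdm5c, with a wider interval than either. Phf2 at -0.11 lay between Kdm3b at -0.07 and Kdm4b, and the 95% intervals of these neighbours in order overlap.

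**Figure D3:**
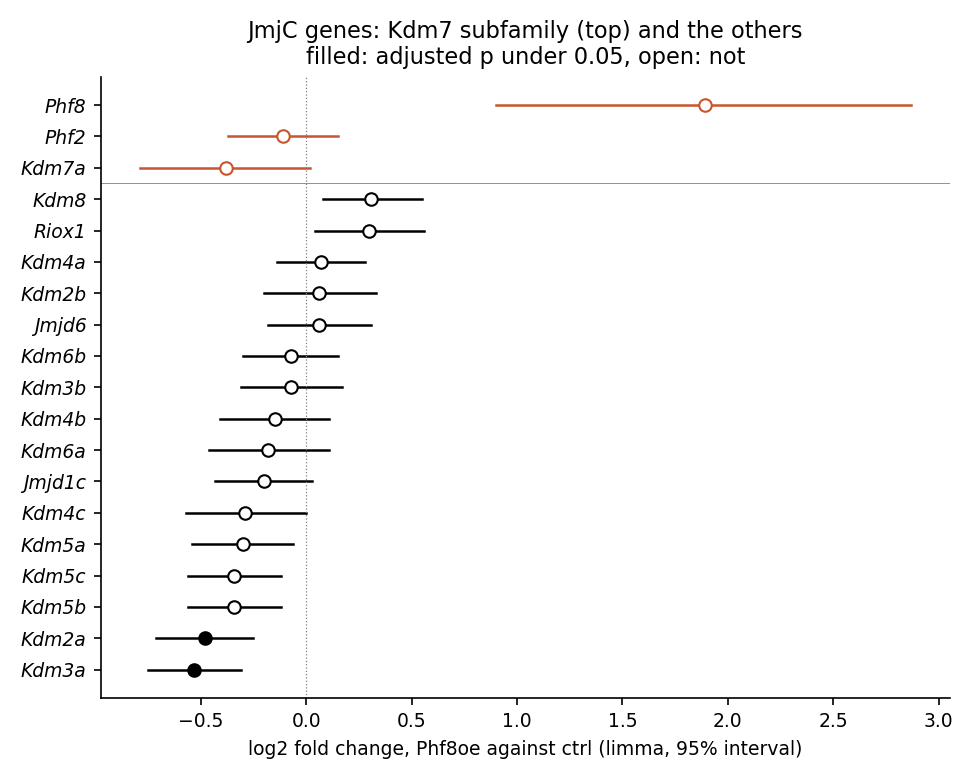
Fitted log2 fold change of Phf8oe against ctrl (x axis) with its 95% interval for the 3 Kdm7 subfamily genes (orange) and 16 other JmjC genes (black); filled circles passed an adjusted p of 0.05. Phf8 stands alone at 1.89 with an interval from 0.9 to 2.87, and the filled circles are Kdm2a and Kdm3a at -0.48 and -0.53.

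The LSD demethylases remove the same kind of mark by a flavin-dependent reaction. None of 4 genes of this group passed the limma test at an adjusted p of 0.05; Rcor1, a scaffold, had an unadjusted p of 0.0334. Kdm1a, the main enzyme, had 5112 and 4901 normalized counts in ctrl and 4844 and 5191 in Phf8oe, at a log2 fold change of 0.0 (95% interval -0.22 to 0.22). Kdm1b stood at 0.2.

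Writers and readers of the marks that the subfamily removes were the next groups. None of 12 genes of H3 lysine 9 methylation passed the limma test, nor had any an unadjusted p under 0.05, with a median log2 fold change of 0.03 and a range from -0.21 to 0.27. Between the groups 5 lay higher and 3 lower without overlap, against 28.9% and 28.7% of tested genes. Ehmt2, which writes the dimethyl mark that Phf8 removes, had 21026 and 20275 normalized counts in ctrl and 19037 and 19442 in Phf8oe, at a log2 fold change of -0.1 (limma adjusted p = 0.558). Cbx3, an HP1 protein that binds methylated lysine 9, stood at 0.19 (limma adjusted p = 0.256). None of 10 genes of H4 lysine 20 methylation and condensin II passed the limma test, though 3 had an unadjusted p under 0.05, and their median was 0.09. Of these, 4 lay higher and 1 lower without overlap. Kmt5a, which writes the monomethyl mark, had 3765 and 4022 against 4828 and 4797 and did not overlap between groups (log2 fold change 0.31, limma adjusted p = 0.0847). Ncaph2, a condensin II subunit, stood at 0.16. Kmt5b, which adds further methyl groups to that lysine, stood at -0.3 (unadjusted p = 0.016), and the methyl-lysine reader gene L3mbtl1, at only 15 and 15 against 35 and 28 normalized counts, at 1.01 (unadjusted p = 0.0211). None of the 4 core genes of H3 lysine 27 methylation passed, Ezh2 standing at -0.01 and Suz12 at 0.01, and the range was -0.04 to 0.04. No gene of this last group had an unadjusted p under 0.05, and all 4 overlapped between the groups.

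Among 10 measured genes that write trimethylated H3 lysine 4, the mark read by the PHD finger, 2 fell, none rose and 8 did not pass. Calls in either direction came to 7.64% of all tested genes. Between the groups 3 genes of this list lay higher and 3 lower without overlap, against 28.9% and 28.7% of tested genes. Kmt2a, a lysine methyltransferase, had 1715 and 1531 normalized counts in ctrl and 972 and 970 in Phf8oe. It lay at a log2 fold change of -0.74 with SE 0.11 (limma adjusted p = 0.00897). Setd1b, another, had 1407 and 1324 against 1007 and 985, at a log2 fold change of -0.45 with SE 0.11 (limma adjusted p = 0.042). Kmt2b stood at -0.14 and Rbbp5, a shared core subunit, at 0.13. The median of the list was -0.01. An unadjusted limma p under 0.05 was found for 3 of the 10, against 3778 of 14368 tested genes. The third was Dpy30, higher at 0.42. Kmt2a and several JmjC genes make long transcripts. A list of 23 very long messenger RNAs had its median at -0.27 log2 units, with 7 lower, none higher and 16 not passing. Over all tested genes 4.65% were called lower. The list was drawn up with the results in view and so is no test of length. The part of transcript length in the calls of Kmt2a, Setd1b, Kdm2a and Kdm3a was not tested.

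Proteins described to bind or modify Phf8 and Phf2 were mixed. Of 11 measured, Arid5b fell, E2f1 rose and 9 did not pass, a share called of 18.2% against 7.64% of all tested genes. An unadjusted limma p under 0.05 was found for 6 of the 11, against 3778 of 14368 tested genes. Beside these 2, Cdk1, Ccnb1 and Polr1b lay higher at log2 fold changes of 0.43, 0.47 and 0.32, and Usp7 lower at -0.24. Arid5b, the partner that Phf2 needs to reach its targets, had 725 and 722 normalized counts in ctrl and 369 and 398 in Phf8oe, at a log2 fold change of -0.92 with SE 0.14 (limma adjusted p = 0.00849). Its values were close within each group and far apart between them, 1.89-fold lower in Phf8oe, whereas Phf2 itself overlapped. E2f1, a cell cycle transcription factor at whose target promoters Phf8 is known to act, had 419 and 375 against 581 and 663, at a log2 fold change of 0.65 with SE 0.15 (limma adjusted p = 0.0367), and its call was lost without Phf8oe replicate 2 (0.0592). Hcfc1, a chromatin adaptor that binds E2F factors and Phf8, stood at -0.14 (limma adjusted p = 0.429). Ubtf, a factor of ribosomal RNA transcription, where Phf8 also acts, stood at -0.09, and Prkaca, the catalytic subunit of protein kinase A, at 0.04.

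JmjC enzymes depend on 2-oxoglutarate, which isocitrate dehydrogenases make, and are inhibited by succinate and fumarate. Of 13 measured genes of this supply, Fh and Idh2 rose, none fell and 11 did not pass. Called genes made up 15.4% of the list, against 7.64% of all tested genes. Between the groups 8 lay higher and 1 lower without overlap, against 28.9% and 28.7% of tested genes. The list had its median at 0.2 log2 units. Fh, fumarate hydratase, had 1964 and 2399 normalized counts in ctrl and 3085 and 3194 in Phf8oe (1.45-fold, limma adjusted p = 0.0322). Idh2, the mitochondrial isocitrate dehydrogenase, had 6114 and 7661 against 9504 and 9926 (1.42-fold, limma adjusted p = 0.0408). The cytosolic Idh1 stood at -0.03 and Sdha, a subunit of succinate dehydrogenase, at 0.2. Tfrc, the transferrin receptor, lay lowest of the list at -0.5 without passing, and Dlst and D2hgdh stood at 0.03 and -0.01. An unadjusted limma p under 0.05 was found for 5 of the 13, against 3778 of 14368 tested genes. Beside Fh and Idh2, these were Idh3g and Sdhd, higher at 0.27 and 0.31, and Tfrc, lower. The calls of Fh and Idh2, both mitochondrial enzymes, stand beside the higher share of mitochondrial transcripts given above, whose part was not tested.

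**Figure D4:**
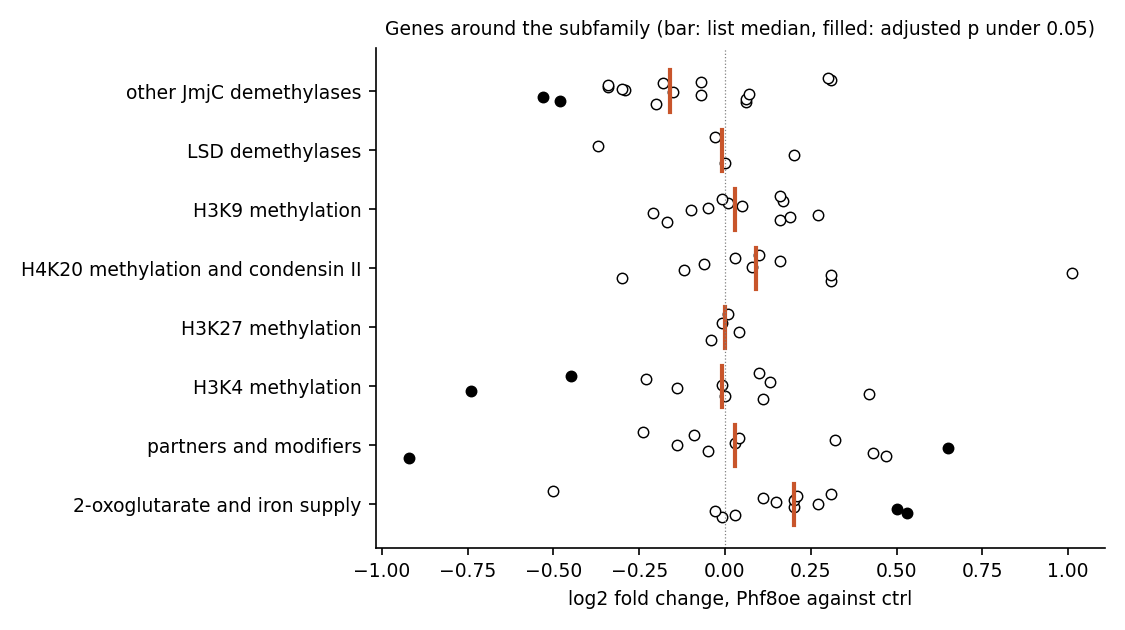
Fitted log2 fold change of Phf8oe against ctrl (x axis) for every measured gene of 8 groups around the subfamily; each circle is a gene, filled where it passed an adjusted p of 0.05, and the orange bar is the group's median. Medians run from -0.16 for the other JmjC genes to 0.2 for 2-oxoglutarate and iron supply.

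Over these 8 groups 80 distinct genes were tested, of which 3 rose, 5 fell and 72 did not pass. The share called was 10.0%, against 7.64% of all tested genes. All 8 calls were lost when either ctrl library was left out, in which case the spread is measured in the Phf8oe pair alone, and those of Setd1b, E2f1, Fh and Idh2 were lost without robust variance moderation (limma adjusted p from 0.0532 to 0.0649). All 8 were also lost without a variance trend (0.0985 to 0.19).

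The Phf8oe libraries carried different amounts of Phf8, so the group medians were also taken library by library, as the log2 difference from the ctrl mean. For the other JmjC genes they were -0.1 in Phf8oe replicate 1 and -0.18 in replicate 2, the library with more Phf8. Replicate 2 was also the lower one for H3 lysine 9 (0.11 and -0.01), H3 lysine 4 (0.02 and -0.05) and 2-oxoglutarate and iron supply (0.2 and 0.16). In the other 4 groups it was the higher one, at -0.13 and 0.1 for the LSD group, 0.04 and 0.11 for H4 lysine 20 and condensin II, -0.06 and 0.06 for H3 lysine 27, and -0.05 and 0.02 for the partners. These pairs share the same ctrl libraries, and with 1 library at each level of Phf8 no relation to its amount can be tested.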

How the data were processed

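RNA-seq was compared between 2 ctrl and 2 Phf8oe libraries. Per the submitters' processing notes, the authors used STAR 2.5.2b, Trimmomatic 0.36, bcl2fastq 2.20 and DESeq2, with rn6 and Rnor_6.0. Read pairs were of 150 bases per the labels. Gene counter, annotation and use of strand: not given in the sources used here. As deposited, each signal value is a normalized count rounded to a whole number, although named raw. From regular gaps and repeats among the values, 1 read was worth 0.8445 and 1.0176 (ctrl) or 0.9548 and 1.4159 (Phf8oe, in order of replicate). On simulated libraries this estimate erred by at most 0.0012%. Sample files matched the series table in every value.

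Genes with at least 10 in at least 2 libraries (14368) were tested with limma 3.58.1 (run in R 4.3.3) after taking log2(value + 1), with group as the only term and trended, robust variance moderation; p-values were two-sided and adjusted by the Benjamini-Hochberg method over all tested genes. Fold changes are on that scale and understate those of low genes. On 5 simulated sets with 200 genes changed, simulating Phf8oe against ctrl (14326 to 14341 genes tested), limma called 74% of genes changed 2-fold and 94.2% of those changed 4-fold, and 5.5% of its calls were false. Changes under 2-fold were not simulated. The simulated variances were drawn from the limma fit itself, gene by gene. The share of false calls therefore does not show how well that model holds for these libraries. Counting errors are Poisson, from estimated reads, and cover counting only.

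The members and lists were chosen with earlier results of these data known. Named were the members, up to 6 called and the 2 most abundant uncalled genes of each list, 3 genes nearest each member in profile, 2 neighbours a side, Kdm5c and Hcfc1. Any other gene was picked with its values in view. Zfp711, Kmt2c, Kmt2d, Kdm4d, Kdm5d, Uty, Riox2, Idh3b, Ogdh and marker genes Aqp4, Stmn2, Aif1, Cx3cr1, Tmem119, Ptprc, Col3a1, Dcn, Lum and Pdgfrb were not analysed here, since no row was found for them under the symbols searched. Suv39h1 was matched through its older symbol Suv39h1l1. Alternatives were limma-voom on estimated reads, 3 other scalings, other pseudocounts and filters, other variance moderation, the replicate number as a block, and leaving out each library. Python 3.11.15 was used with numpy 2.4.6, pandas 2.3.3, scipy 1.17.1 and matplotlib 3.10.9.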

Additional observations from a re-analysis of the deposited data

How the results depend on the processing

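Of 16 alternatives, 15 were planned and 1, the crossed pairing of replicates, was chosen after seeing the data. The 1098 calls over all genes (430 higher, 668 lower) became 373 (65 and 308) with the replicate block, 2354 (1056 and 1298) with crossed pairing, and 806 (256 and 550) without robust moderation. In limma without a variance trend the count was 0, in both directions, with 3133 genes at an unadjusted p under 0.05. Upper quartile scaling gave 614 higher and 598 lower, and total scaling 423 and 819; the median of all genes moved to 0.05 and -0.02. With a library left out the count ran from 14 (without ctrl replicate 1) to 2103 (without Phf8oe replicate 2), with 1 to 905 higher and 13 to 1198 lower. Phf8 passed at 1.89 without robust moderation and with the replicate block, (limma adjusted p = 0.0194 and 0.0313), and ran from 1.42 to 2.35 with a library left out; Phf2 ran from -0.25 to 0.03. Same-numbered libraries deviated with a correlation of -0.126 across genes, so the numbers were not taken as pairs. With the block the calls of Kdm3a, Kdm2a, Setd1b, E2f1, Fh, Idh2 and C1qtnf6 were lost (limma adjusted p from 0.0532 to 0.101), while Kmt2a, Arid5b and Lzts1 passed. The pathway genes called, 3 higher and 5 lower, became 0 higher without robust moderation, 0 and 2 with the block, 6 and 8 with crossed pairing, 0 and 0 without a trend, and 0 to 6 in either direction with a library left out. The median of 2-oxoglutarate and iron supply was 0.18 with limma-voom and with total scaling, and 0.24 with upper quartile scaling, which also gave -0.12 for the other JmjC genes and 0.07 for both H3 lysine 9 and the partners. With a library left out the medians ran from 0.16 to 0.2 for 2-oxoglutarate supply, -0.18 to -0.1 for the other JmjC genes, -0.01 to 0.11 for H3 lysine 9, -0.06 to 0.06 for H3 lysine 27, -0.08 to 0.06 for H3 lysine 4, -0.05 to 0.06 for the partners, and -0.29 to -0.2 for very long messenger RNAs. Genes near 0 changed sign: Kdm1a to -0.02 and Suz12 to -0.01 with limma-voom and total scaling, Ptpdc1 to -0.01 with total scaling, and Ezh2 to 0.03 and Idh1 to 0.01 with upper quartile scaling. With a library left out these and others crossed 0: Kdm1a -0.05 to 0.05, Suz12 -0.03 to 0.05, Ptpdc1 -0.14 to 0.16, Ezh2 -0.14 to 0.12, Idh1 -0.08 to 0.01, Kmt2b -0.32 to 0.05, Arfgap1 -0.27 to 0.02, Erlin2 -0.23 to 0.05, Ddx17 -0.22 to 0.04, Wnk2 -0.05 to 0.35, Mirlet7d -0.33 to 0.44, Parp12 -0.04 to 0.2 and Chmp4bl1 -0.22 to 0.02. The cause of these moves was not tested.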
